A study of Rattus norvegicus with 6 samples.

Results

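Values of miR-378a, miR-378b, miR-192 and miR-194 were taken from miRNA sequencing of the rat hypothalamic arcuate nucleus (ARC). Members were the rows whose hairpin name was exactly one of these 4, whichever arm of the hairpin they came from, which gave 6 of the 562 mature miRNAs: rno-miR-378a-3p, rno-miR-378a-5p, rno-miR-378b, rno-miR-192-5p, rno-miR-194-5p and rno-miR-194-3p. All 6 passed the filter on low values. The tissue came from Sprague-Dawley rats aged 8 to 10 weeks, and both groups had the left infraorbital nerve exposed. In CCI-ION rats, a model of trigeminal neuropathic pain, the nerve was then loosely tied with silk (chronic constriction injury), and in sham-operated rats it was not. ARC was collected on Day 14 after surgery, giving 3 sham and 3 CCI-ION libraries. The study's legend for these data gives more rats per group than there are libraries, and how rats were assigned to libraries is not given in the sources used here, so p-values measure the spread between libraries, which may be partly technical. Since RNA came from whole tissue, fewer cells of a type and less miRNA per cell cannot be told apart.

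A miRNA hairpin is cut into a duplex, and the strand loaded into Argonaute guides it to messenger RNAs that pair with the seed, bases 2 to 8 of the miRNA. The hairpin of miR-378a lies in an intron of Ppargc1b, which encodes PGC-1β, a coactivator of genes of mitochondrial and lipid metabolism, and both of its arms are known as regulators of mitochondrial oxidation and fat metabolism, mostly from muscle, liver and fat. miR-192 is made from a primary transcript shared with 1 of the 2 miR-194 hairpins, and both miRNAs are best known as abundant miRNAs of liver, kidney and gut epithelium. The arcuate nucleus holds the neurons that sense energy state and control feeding.

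The mature sequences show which members could pair with the same messenger RNAs, and 5 of the 6 members matched an entry of RefSeq for assembly GRCr8. They are written 5′ to 3′ with the seed in capitals, and miR-215, the seed relative of miR-192-5p that is not analysed here, is shown for comparison.
rno-miR-378a-3p: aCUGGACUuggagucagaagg
rno-miR-378a-5p: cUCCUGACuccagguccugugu
rno-miR-192-5p: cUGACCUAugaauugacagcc
rno-miR-194-5p: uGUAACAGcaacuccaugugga
rno-miR-194-3p: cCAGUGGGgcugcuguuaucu
rno-miR-215: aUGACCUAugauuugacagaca
None of these 5 members shared its seed with another of them, so the arms of 1 hairpin, and miR-192-5p and miR-194-5p, carry different seeds. For miR-378b no entry matched, so its seed was not compared. miR-192-5p and miR-215 had the same seed and differed over the length of miR-192-5p by C1A, A12U and C20A, counted from 1 at the 5′ end with the base of miR-192-5p first.

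In GRCr8, used here for names and neighbours only, Mir378 lies on chromosome 18 inside Ppargc1b and on the same strand, and a hairpin of the opposite strand, Mir3557, overlaps it. Mir378b lies on chromosome 5 within the span of Ncoa2, a coactivator of nuclear receptors, and its strand was not compared. The mature miR-194-5p comes from 2 genes with the same mature sequence. Mir194-2 is the neighbour of Mir192 on chromosome 1, and Mir194-1 is the neighbour of Mir215 on chromosome 13. Mir194-1 lies within the span of Iars2, a mitochondrial tRNA synthetase gene, but on the opposite strand. As the 2 mature sequences are the same, a read of miR-194-5p cannot be assigned to Mir194-2 or to Mir194-1.

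Each deposited value is a read count divided by a size factor of its library and is called a normalized count here. Converted to reads, the libraries held 11115049 to 14313839 reads in sham rats and 8628309 to 11297551 in CCI-ION rats, with the lowest totals in CCI-ION replicates 2 and 3. Groups were compared with limma on log2(normalized count + 1) two-sided, on the 555 miRNAs whose mean was at least 1, with Benjamini-Hochberg adjustment and an adjusted p of 0.05 as threshold. Fold changes below are on this log2 scale, and an exact permutation test of 3 against 3 libraries cannot give a two-sided p below 0.1. Markers of the labelled tissue were present: all 6 miRNAs of a list for neurons and hypothalamus were above 0 in every library, led by miR-7a-5p. The list summed to between 3901220 and 4934931 normalized counts in sham rats and between 2378641 and 3094992 in CCI-ION rats. All 6 had log2 fold changes below 0, with a median of -0.85 against -0.01 over all miRNAs, and 4 had an unadjusted p under 0.05. With the adjusted p 0 rose and 1 fell, miR-124-3p, the classical neuronal miRNA (log2 fold change -0.78, SE 0.14, adjusted p = 0.0435), and the part of this in the results below was not tested.

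The mean normalized count of miR-378a-3p in CCI-ION rats was 2.32 times that in sham rats, and the ratio was 2.24 for miR-378b, 1.44 for miR-192-5p, 1.35 for miR-378a-5p and 0.999 for miR-194-5p. With the adjusted p, 1 of the 6 members rose (miR-378a-3p) and 0 fell, whereas 3.42% of all miRNAs tested rose and 3.42% fell. In 3 of the 6 (miR-378a-3p, miR-378b and miR-192-5p) all CCI-ION values exceeded all sham values, which held for 19.5% of all miRNAs tested. The same 3 had an unadjusted p under 0.05, as did 183 of the 555. These 3 are also among the miRNAs that the study chose for display because they rose in these libraries, so their direction is not independent evidence.

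**Figure D1:**
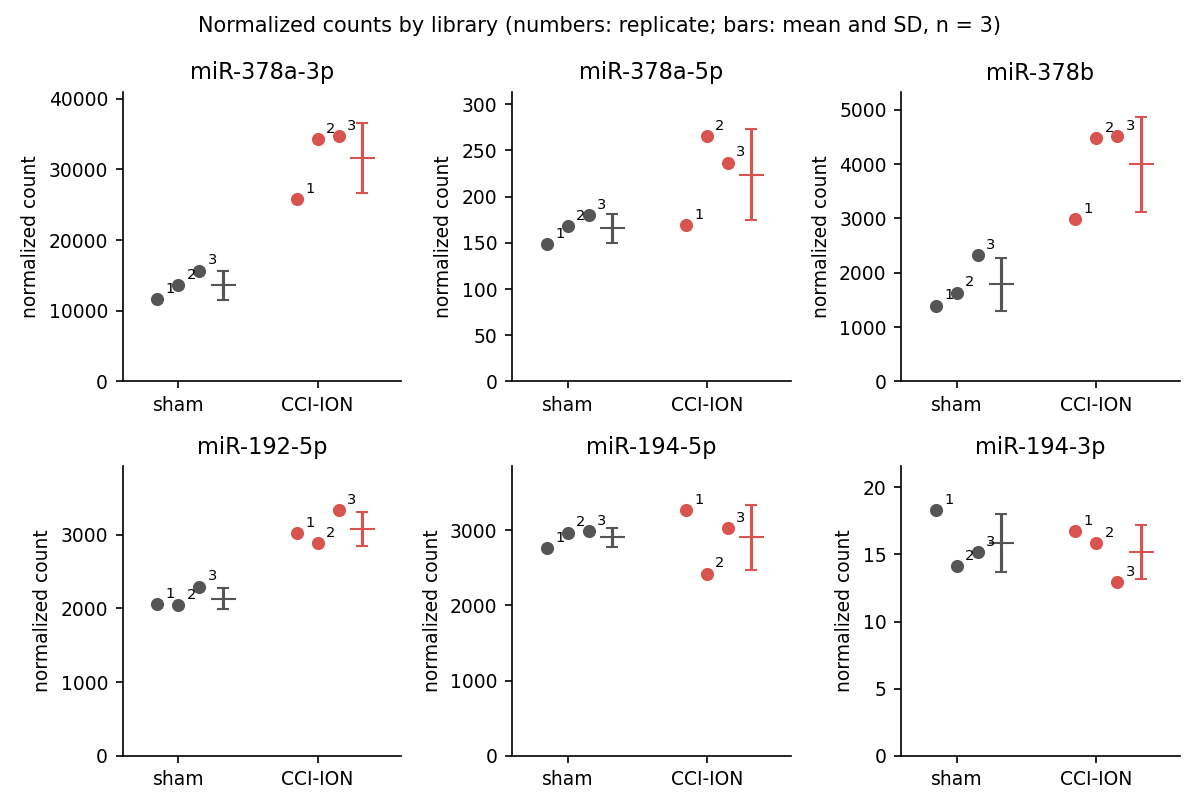
Normalized counts of the 6 members on linear axes from 0, with a numbered point for each of the 3 sham (grey) and 3 CCI-ION (red) libraries and a bar for the mean and SD of each group. The groups are apart for miR-378a-3p, miR-378b and miR-192-5p and overlap for miR-378a-5p, miR-194-5p and miR-194-3p.

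miR-378a-3p was the most abundant member, ranking 53 of 562 by mean. Its normalized counts were 11600, 13575 and 15671 in the sham libraries (replicates 1, 2 and 3, the order used throughout) and 25828, 34321 and 34711 in the CCI-ION libraries. All CCI-ION libraries were above all sham libraries, and CCI-ION replicate 1 was the lowest of its group. The mean went from 13615 ± 2036 (SD, n = 3) to 31620 ± 5020 (SD, n = 3), a ratio of 2.32. The log2 fold change was 1.21 (SE 0.18, 95% confidence interval 0.75 to 1.67, adjusted p = 0.0310 from limma), rank 23 of 555 from the largest rise. As a share of all reads, miR-378a-3p took 0.114% ± 0.0200 of the sham reads and 0.303% ± 0.0498 of the CCI-ION reads (SD over n = 3 libraries). With 1 library left out, the call held without CCI-ION replicate 1 (adjusted p = 0.0319) and without CCI-ION replicate 2 (0.0498). It was lost without sham replicate 1, 2 or 3 (0.0893, 0.117 and 0.0682) and without CCI-ION replicate 3 (0.0812), with log2 fold changes from 1.10 to 1.35 over the 6. Without CCI-ION replicates 2 and 3, the libraries with the fewest reads, the log2 fold change was 0.93. That fit has a single CCI-ION library and so no spread within CCI-ION, and only its fold change is given.

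miR-378b, listed with no arm in its name, is a separate hairpin of the family. Its normalized counts were 1393, 1635 and 2323 in the sham libraries and 2992, 4477 and 4513 in the CCI-ION libraries. Again the groups did not overlap and CCI-ION replicate 1 was the lowest of its group. The mean was 1784 ± 482 against 3994 ± 868 (SD over n = 3 libraries), with a log2 fold change of 1.17 (SE 0.26, 95% confidence interval 0.51 to 1.83). The adjusted p from limma, 0.0597, missed the threshold, and the log2 fold change lay between 1.01 and 1.38 when each library was left out in turn. With CCI-ION replicate 1 as the single CCI-ION library, and so with no spread within CCI-ION, the value was 0.78. Reads of miR-378b amounted to 12.01%, 12.05% and 14.8% of those of miR-378a-3p in the sham libraries and to 11.6%, 13.0% and 13.0% in the CCI-ION libraries. This ratio overlapped between the groups and the difference of the 2 log2 fold changes was 0.04 (exact permutation test, two-sided p = 0.8). Reads of near-identical miRNAs can be shared between family members, and how such reads were assigned is not given in the sources used here. The value of miR-378b is therefore uncertain. As no sequence of miR-378b was matched, its likeness to miR-378a-3p was not checked. Summed, miR-378a-3p and miR-378b gave a log2 fold change of 1.21 (adjusted p = 0.0333).

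miR-378a-5p, the other arm of the miR-378a hairpin, was far less abundant, ranking 320 of 562. Its normalized counts were 149, 168 and 180 in the sham libraries and 169, 265 and 237 in the CCI-ION libraries. CCI-ION replicate 1 lay within the sham range and the other two CCI-ION libraries lay above it. The mean was 166 ± 16.0 against 224 ± 49.3 (SD over n = 3 libraries), and the log2 fold change of 0.41 (SE 0.20, 95% confidence interval -0.09 to 0.91) had an adjusted p of 0.205.

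**Figure D2:**
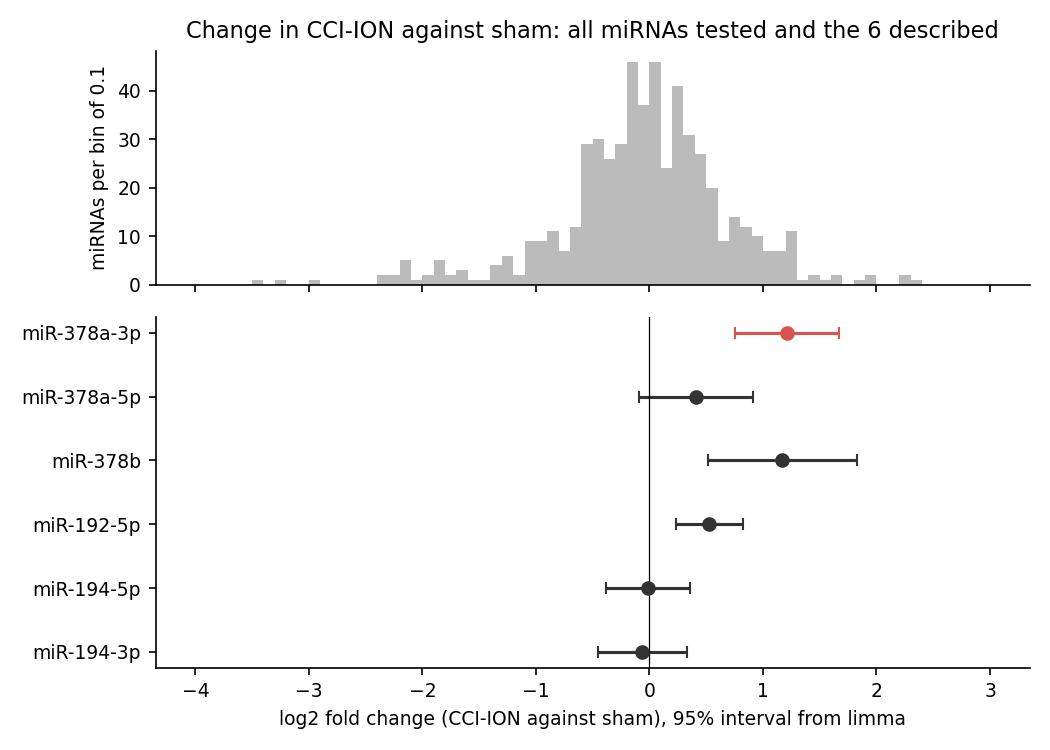
Histogram of the log2 fold changes (CCI-ION against sham) of the 555 miRNAs tested, above those of the 6 members from limma with bars for the 95% confidence interval and red for an adjusted p under 0.05. The intervals of miR-378a-3p, miR-378b and miR-192-5p lie above 0, and those of miR-378a-5p, miR-194-5p and miR-194-3p include 0.

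Both arms of miR-378a come from the same hairpin, so within a library their ratio compares strands of 1 precursor if all their reads come from it. How reads shared between family members were assigned is not given, so this was not checked. The 5p arm amounted to 1.28%, 1.24% and 1.15% of the 3p arm in the sham libraries and to 0.656%, 0.773% and 0.682% in the CCI-ION libraries. Every CCI-ION library was below every sham library. There were 81.9 ± 4.50 reads of the 3p arm per read of the 5p arm with sham surgery and 143 ± 12.1 with CCI-ION (SD over n = 3 libraries). On the log2 scale the ratio of 5p to 3p fell by 0.80 (SE 0.13, adjusted p = 0.0206 from limma over 190 hairpins with both arms), and 6.32% of these hairpins had a fall past the threshold. By the size of its fall it ranked 29 of 190. The call held without CCI-ION replicate 2 (adjusted p = 0.0217) and without CCI-ION replicate 3 (0.0455). It was lost without sham replicate 1, 2 or 3 (0.104, 0.105 and 0.0891) and without CCI-ION replicate 1 (0.0565), with the ratio lower in CCI-ION rats in all 6 fits (-0.87 to -0.75).

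miR-192-5p ranked 156 of 562 by mean, close to miR-378b. Its normalized counts were 2061, 2044 and 2296 in the sham libraries and 3021, 2883 and 3332 in the CCI-ION libraries. The groups did not overlap, and both were tighter than those of miR-378b. The mean was 2133 ± 141 for sham and 3079 ± 230 for CCI-ION (SD over n = 3 libraries). The log2 fold change of 0.53 (SE 0.12, 95% confidence interval 0.24 to 0.82) missed the threshold with an adjusted p of 0.0597 from limma. With upper-quartile scaling it was 0.28 (adjusted p = 0.168), and with scaling to total counts it was 0.73 (adjusted p = 0.0323).

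miR-194-5p, whose reads can come from Mir194-2 beside Mir192 or from Mir194-1 beside Mir215, had almost equal means in the groups. Its normalized counts were 2766, 2971 and 2991 in the sham libraries and 3266, 2423 and 3031 in the CCI-ION libraries, so the CCI-ION libraries lay on both sides of the sham range. The mean was 2910 ± 125 against 2907 ± 435 (SD over n = 3 libraries). The log2 fold change was -0.01 (SE 0.15, 95% confidence interval -0.38 to 0.36, adjusted p = 0.964), and its sign followed the scaling, with 0.19 for total counts and -0.26 for upper-quartile factors. The partner arm, miR-194-3p, rested on 12 to 18 reads per library. It had normalized counts of 18.3, 14.1 and 15.2 in the sham libraries and 16.7, 15.8 and 12.9 in the CCI-ION libraries, with a log2 fold change of -0.06 (SE 0.16, 95% confidence interval -0.45 to 0.33, adjusted p = 0.815). The exact 95% Poisson interval of the lowest library alone, CCI-ION replicate 3, ran from 6.20 to 20.96 reads, which covers counting error only. For miR-194 the log2 ratio of 5p to 3p differed between groups by 0.05 (SE 0.22, 95% confidence interval -0.50 to 0.60, adjusted p = 0.927). The matched entry of miR-194-3p belongs to Mir194-2 only, whereas miR-194-5p comes from 2 genes. Unlike that of miR-378a, this ratio therefore does not compare strands of 1 precursor.

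Within a library, miR-192-5p amounted to 74.5%, 68.8% and 76.8% of miR-194-5p in the sham libraries and to 92.5%, 119% and 110% in the CCI-ION libraries. All CCI-ION libraries were above all sham libraries, and CCI-ION replicate 1 was nearest to the sham range. The log2 fold change of miR-192-5p exceeded that of miR-194-5p by 0.54 (exact permutation test, two-sided p = 0.1, the smallest possible; 0.167 adjusted over the 15 pairs of members). Neighbouring miRNA pairs in GRCr8 on the same strand, within 10000 bases and with means of at least 100, were compared after values were seen. Of these 76 pairs, 24 were at least as far apart in log2 fold change, a count that includes miR-192-5p and miR-194-5p themselves. The median difference was 0.30. The smallest adjusted p over the 15 member pairs, which share their 6 members, was 0.167, so the design could not put any pair past the threshold.

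**Figure D3:**
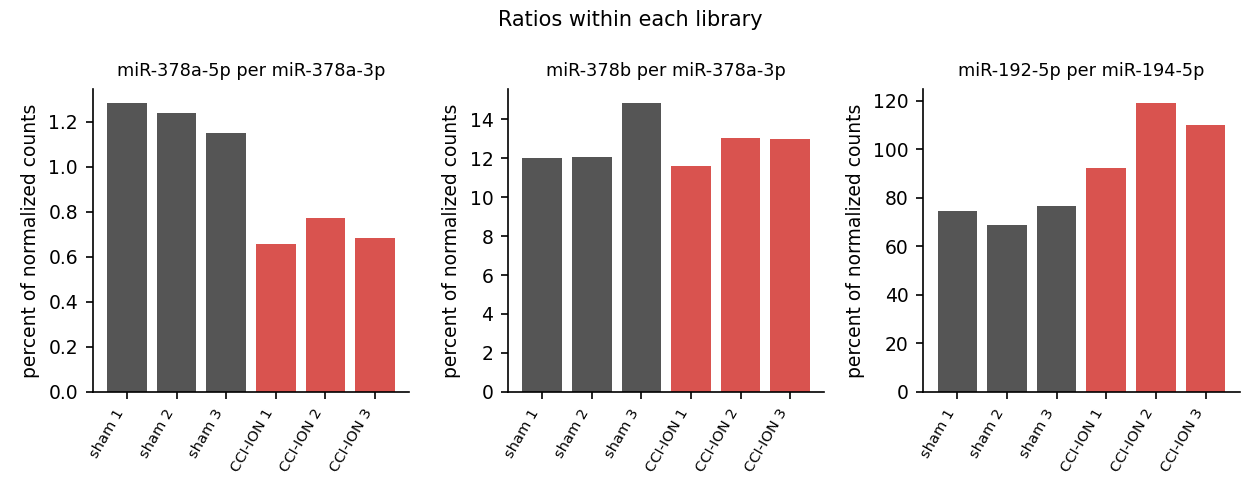
Ratios within each library, in percent, of the 5p to the 3p arm of miR-378a, of miR-378b to miR-378a-3p and of miR-192-5p to miR-194-5p, with 1 bar for each sham (grey) and CCI-ION (red) library and axes from 0. The first ratio is lower and the third higher in all 3 CCI-ION libraries than in all 3 sham libraries, and the second overlaps.

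The order of levels differed between the groups in its middle. In sham rats the mean normalized count fell from miR-378a-3p (13615) through miR-194-5p (2910), miR-192-5p (2133), miR-378b (1784) and miR-378a-5p (166) to miR-194-3p (15.9). The ranges of miR-192-5p and miR-378b overlapped there, and the other neighbours in the order were apart. In CCI-ION rats miR-378b (3994) came second, ahead of miR-192-5p (3079) and miR-194-5p (2907). The ranges of miR-378b, miR-192-5p and miR-194-5p all overlapped one another in CCI-ION rats.

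Over the 6 libraries, members differed in which miRNAs they followed. By Pearson's r of log2 values with the 363 miRNAs of a mean of at least 100, given as a description because the points share libraries and groups, miR-378a-3p was closest to miR-143-3p and miR-199a-5p (r = 0.99 for both) and miR-378b (0.98). miR-378b was closest to miR-497-5p (1.00), miR-378a-3p (0.98) and miR-30a-3p (0.98). miR-378a-5p was closest to miR-125b-2-3p (0.98), miR-15b-5p and miR-99a-5p (0.93 for both), and its own 3p arm came at rank 20 with an r of 0.86. For miR-192-5p the closest were miR-24-2-5p and miR-532-5p (0.98 for both) and miR-30d-5p (0.97), and miR-194-5p came at rank 171 with an r of 0.11. miR-194-5p was closest to miR-376a-5p (0.92), miR-3068-5p (0.91) and miR-434-5p (0.88). miR-194-3p, at its few reads, was closest to miR-132-3p (0.96), miR-28-5p (0.85) and miR-486 (0.82).

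Markers of tissues rich in these miRNAs differed in level, and 0 of those tested passed the threshold. For miR-378, a list for skeletal and heart muscle had 5 miRNAs tested, of which 0 passed the threshold. It summed to between 1028 and 1711 normalized counts in sham rats and between 597 and 1194 in CCI-ION rats, nearly all of it miR-499-5p. The defining muscle miRNA miR-1-3p was between 4.65 and 32.9, and miR-133b-3p was listed at 0 in sham replicate 2 and CCI-ION replicate 2. A brown fat list (4 tested, 0 past the threshold, led by miR-455-3p) summed to between 1801 and 1893 in sham rats and between 1697 and 1873 in CCI-ION rats. Of its 4 log2 fold changes, 2 were above 0. All CCI-ION values were above all sham values for miR-193b-3p (log2 fold change 0.54, adjusted p = 0.107 from limma). They were below all sham values for miR-455-3p (-0.27, adjusted p = 0.224). For miR-192 and miR-194, miR-122-5p, the dominant miRNA of hepatocytes, lay between 77.3 and 126 in sham rats and between 112 and 122 in CCI-ION rats. An epithelial list (the miR-200 family and miR-375-3p, 6 tested, 0 past the threshold) summed to between 10541 and 15566 in sham rats and between 13061 and 30452 in CCI-ION rats. All 6 of its log2 fold changes were above 0, with a median of 0.72 against -0.01 over all miRNAs, and CCI-ION replicates 2 and 3 were its highest libraries. Of the 6, 2 had an unadjusted p under 0.05 from limma, as did 183 of all 555. For miR-375-3p all CCI-ION values exceeded all sham values, which held for 19.5% of all miRNAs tested. CCI-ION replicate 1 lay within the sham range of the sum. The part of these cells in the values of miR-192-5p was not tested.

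Some of the other cells that the dissected tissue can hold were covered by 3 further lists, in each of which 0 miRNAs passed the threshold. Vessel wall and glia had no list. Outside these lists, miR-143-3p, which is abundant in smooth muscle, passed the threshold (limma: 1.11, adjusted p = 0.0334). Red blood cell miRNAs (3 tested, led by miR-486) summed to between 2837 and 3798 in sham rats and between 2898 and 3660 in CCI-ION rats. Of these, miR-451-5p had a log2 fold change of 1.07 (adjusted p = 0.0649), and miR-144-5p was listed at 0 in 3 libraries. Leukocyte miRNAs (5 tested, led by miR-150-5p) summed to between 2707 and 3404 in sham rats and between 2170 and 2702 in CCI-ION rats. Most of this sum was miR-150-5p, which was lower in every CCI-ION library than in every sham library (limma: -0.45, adjusted p = 0.113). The scarcer miR-223-3p went the other way, at 35.4, 42.4 and 59.0 with sham surgery and 78.2, 90.1 and 94.7 with CCI-ION (limma: 0.95, adjusted p = 0.0597). In this list 3 of the 5 miRNAs changed upward. Choroid plexus and ependyma miRNAs (5 tested, led by miR-204-5p) summed to between 65993 and 90237 in sham rats and between 85001 and 108839 in CCI-ION rats. The part of these cells in the members' values was not tested.

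To place the members among other miRNAs of energy metabolism, a list of 29 names was used, of which 25 were tested and 4 (miR-122-3p, miR-208b-3p, miR-802-3p and miR-802-5p) were not analysed here. Of the 25, 3 rose and 1 fell, beside 3.42% of all miRNAs in each direction, and the median log2 fold change was 0.05 against -0.01 over all miRNAs. The balance turned with the scaling, to 4 higher and 0 lower with total counts (median 0.25 against 0.17) and to 2 higher and 5 lower with upper-quartile factors (median -0.20 against -0.26). The 3 that rose are also among the miRNAs the study chose because they rose in these libraries. Of these, the study's qPCR primers include miR-27a-3p, and its qPCR values were not used here. miR-148a-3p, a regulator of hepatic cholesterol uptake, had normalized counts of 86016, 84252 and 77726 in the sham libraries and 179225, 216482 and 275984 in the CCI-ION libraries (log2 fold change 1.42, adjusted p = 0.0190). miR-143-3p, linked to adipocyte differentiation and abundant in smooth muscle, had a log2 fold change of 1.11 (adjusted p = 0.0334). For miR-27a-3p, an inhibitor of adipocyte formation, the log2 fold change was 0.96 (adjusted p = 0.0450).

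miR-107-3p, which with miR-103-3p regulates insulin sensitivity, was the member of this list that fell, with normalized counts of 6613, 7077 and 6607 in the sham libraries and 4763, 4754 and 4250 in the CCI-ION libraries (log2 fold change -0.56, adjusted p = 0.0450). The closely related and more abundant miR-103-3p had a log2 fold change of 0.04 (adjusted p = 0.821), and reads of these near-identical miRNAs may be split between them. miR-128-3p, a regulator of the LDL receptor and abundant in neurons, had a log2 fold change of -0.91 (adjusted p = 0.0597). The miRNAs of the Srebf genes were at the detection limit, miR-33-5p at 5.71, 6.65 and 0 in the sham libraries and at 0 in all CCI-ION libraries, and miR-33-3p at 0 in CCI-ION replicate 2. miR-193a-3p, which is not on the brown fat list, was listed at 0 in sham replicates 1 and 3 and in CCI-ION replicate 2. With 1 library fewer the count of calls in this list was 0 without sham replicate 1 or 2 and 1 without sham replicate 3 or any CCI-ION library, and over all miRNAs it was 7 to 20 in 5 of the 6 such fits.

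**Figure D4:**
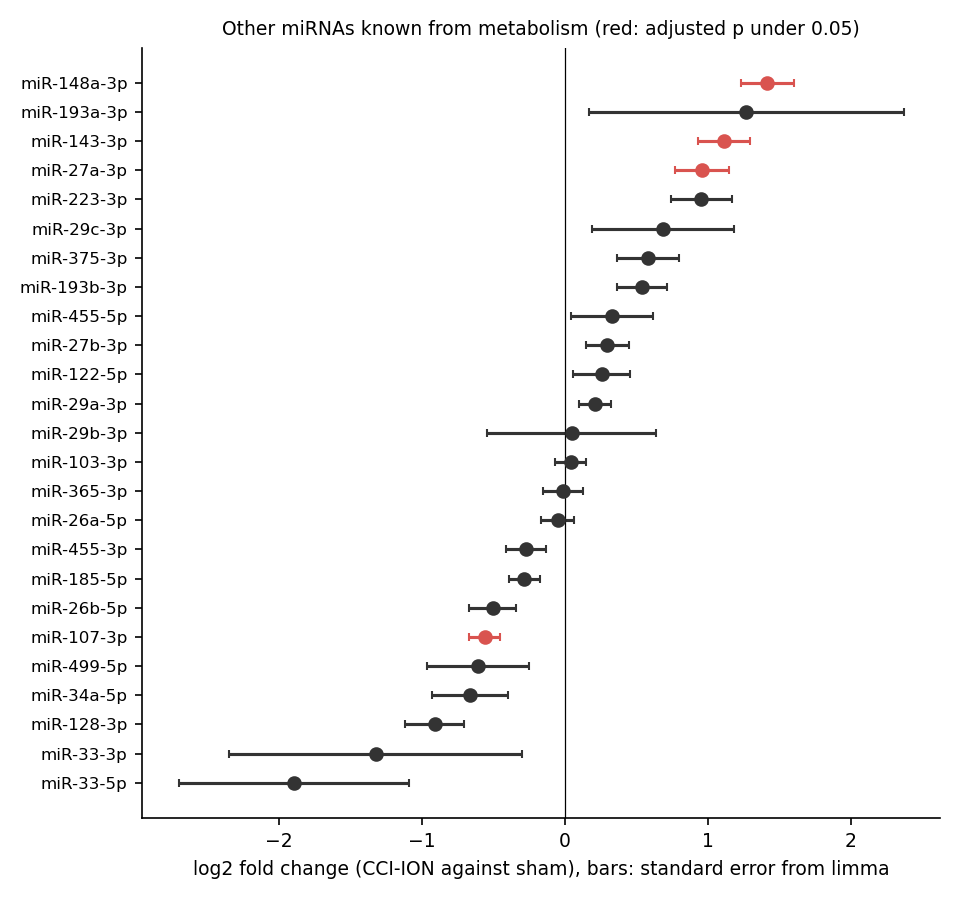
Log2 fold change (CCI-ION against sham) of the 25 tested miRNAs of the metabolism list in order of size, with bars for the standard error from limma and red for an adjusted p under 0.05. miR-148a-3p (1.42) is the highest, and miR-33-5p, miR-33-3p and miR-193a-3p are at 0 in some libraries, so their place depends on the value added to 0.

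Across scalings, filters and left-out libraries, the log2 fold changes of the members moved by different amounts. miR-378a-3p stayed between 0.93 and 1.42 on the log2 scale and miR-192-5p between 0.28 and 0.73. miR-378a-5p ranged from 0.036, without CCI-ION replicates 2 and 3, to 0.61, with total counts.

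**Figure D5:**
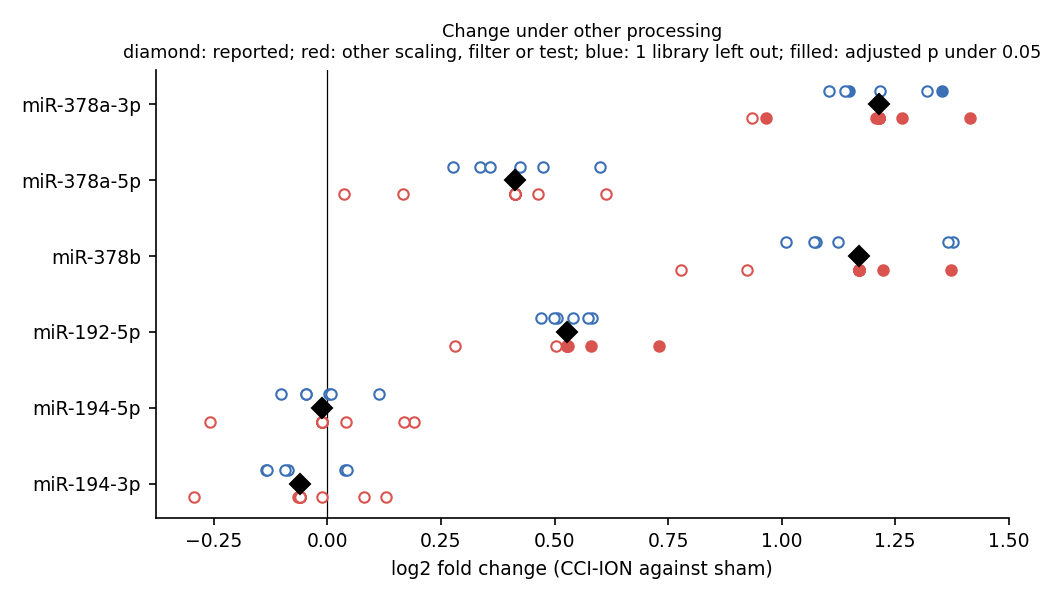
Log2 fold change (CCI-ION minus sham) of the 6 members under each alternative, with a diamond for the reported value, red points for another scaling, filter or test, blue points for 1 library left out, and filled points for an adjusted p under 0.05. miR-378a-3p, miR-378b and miR-192-5p stay above 0 throughout, and miR-194-5p and miR-194-3p fall on both sides of 0.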

How the data were processed

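ARC miRNAs were sequenced in 3 sham and 3 CCI-ION libraries, grouped by the labels. For each library the authors deposited 1 signal value per mature miRNA, which is a read count divided by a size factor of that library (normalized count), as worked out from the values: each was a whole multiple of a step within a tolerance of 0.01 reads, and the smallest above 0 was worth 5 reads. The submitters' processing notes name cutadapt 1.14, Bowtie 1.1.1 and build rn6. The miRNA annotation, mismatches allowed and assignment of reads that match several miRNAs are not given in the sources used here, and near-identical members could share reads.

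On log2(normalized count + 1), groups were compared two-sided by limma 3.58.1 (R 4.3.3), without covariates, for the 555 of 562 miRNAs with a mean of at least 1, with Benjamini-Hochberg adjustment over all of them and a threshold of 0.05. Because the values are normalized, no count model was used, although one had been planned. Read totals, read numbers and Poisson intervals rest on this reconstruction, which the sources used here do not state and which remains uncertain. The study's legend gives 6 rats per group. Arm ratios were fitted likewise for 190 hairpins, and ratios between members were compared by exact permutation tests adjusted over 15 pairs. SDs are between libraries. Members and lists were chosen with earlier results of these data known. Named miRNAs were all members, the 3 closest to each in pattern, and list miRNAs past the threshold or with the 3 largest or smallest changes. Others were chosen after their values were seen. On the lists miR-9-5p was matched to miR-9a-5p. Sequences came from RefSeq (GRCr8), in which 512 of the 562 miRNAs matched. Alternatives were other scalings, filters, pseudocount, threshold, an intensity trend, the replicate number as a block, and each library left out. The code of the group comparison was run on simulated data with planted changes, and it recovered 195 of 200 with 6 false calls. The simulated spread was fixed beforehand and not taken from these libraries, so this checks the code only.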

Additional observations from a re-analysis of the deposited data

How the results depend on the processing

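miR-378a-3p kept its direction in every alternative tried. Among the alternatives with more than 1 library in each group, its adjusted p-values from limma ran from 0.00473 to 0.117. It passed the threshold under all scalings and filters and lost it with the replicate number as a block (1.21, adjusted p = 0.0823). The call was also lost without sham replicate 1, 2 or 3 and without CCI-ION replicate 3. Without CCI-ION replicates 2 and 3, an alternative chosen after seeing the data, the log2 fold change was 0.93. That fit has a single CCI-ION library, so only its fold change is given. Leaving out 1 library at a time gave 1.10 to 1.35 for miR-378a-3p, 1.01 to 1.38 for miR-378b, 0.28 to 0.60 for miR-378a-5p, 0.47 to 0.58 for miR-192-5p, -0.10 to 0.11 for miR-194-5p and -0.14 to 0.043 for miR-194-3p. miR-378b and miR-192-5p passed the threshold with total counts (1.37 and 0.73), total counts without the most abundant miRNA (1.22 and 0.58), an intensity trend, a minimum of 10 reads in each library and a minimum mean of 10 (1.17 and 0.53 in each of these 3). The last 3 leave the fold change as it is and alter the genes tested or the spread. With 1 library left out, the ranges of miR-194-5p and miR-194-3p span 0, so their signs changed in some of these fits. Among the other alternatives, miR-194-5p changed sign with total counts (0.19), without the most abundant miRNA (0.040) and without CCI-ION replicates 2 and 3 (0.17). The sign of miR-194-3p changed with total counts (0.13) and without those 2 libraries (0.081). The cause was not tested.

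The 5p to 3p ratio of miR-378a was -0.80 with the replicate block (adjusted p = 0.0927 from limma) and -0.87 to -0.75 with 1 library left out. Its call was lost with the block and held in 2 of the 6 fits with 1 library left out. The ratio of miR-194 was -0.091 to 0.21 with 1 library left out. Ratios between members changed sign with 1 library left out for miR-378a-3p to miR-378b (-0.058 to 0.094), miR-378a-5p to miR-192-5p (-0.30 to 0.059) and miR-194-5p to miR-194-3p (-0.091 to 0.21). Of all miRNAs, 38 passed here, 94 with upper-quartile factors, 63 with a mean of at least 10, 96 with at least 10 reads, 88 with the trend, 100 at a threshold of 0.1, 3 with the replicate block and 7 to 42 with 1 library left out. Fits without a library rest on fewer samples. In the metabolism list 4 passed, 7 with upper-quartile factors, 0 with the block and 0 to 1 with 1 library left out.

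Over all miRNAs the median change was -0.01 on the log2 scale, 0.17 with total counts and -0.26 with upper-quartile factors. Higher calls were 50% of all calls here, 82.4% with total counts, 10.6% with upper-quartile factors and 61.2% without the most abundant miRNA. Same-numbered libraries did not deviate together (r = -0.031, 0.188 and -0.012), and were treated as unpaired. The count tests planned as alternatives, edgeR and DESeq2, were not run because the deposited values are normalized. At 12 to 18 reads, depth limits miR-194-3p.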
